A study of Mus musculus with 12 samples.

Results

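Insulin makes fat cells take up glucose by moving the glucose transporter GLUT4 from storage vesicles inside the cell to the plasma membrane. The 10 genes described here encode proteins that form, hold and release these vesicles. They were named by their role in the pathway, with earlier results of these data known. Each was found in the deposited table of 39248 rows by its gene name, and where a name had several rows the row with the highest mean over the 12 libraries was used. All 10 had a row, and all 10 were among the 14706 rows with a mean of at least 1 FPKM (fragments per kilobase of transcript, scaled to library size) that were tested.

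Sortilin (Sort1) draws GLUT4 into the vesicles, where the insulin-regulated aminopeptidase (Lnpep) and the receptor LRP1 (Lrp1) travel with it. The tether TUG (Aspscr1) holds vesicles inside unstimulated cells. Release runs through 2 GTPase switches: TBC1D4 and TBC1D1 keep Rab GTPases off until insulin signalling inhibits them, and a complex of Ralgapa2 and Ralgapb does the same for RalA (Rala), which then engages the exocyst that docks vesicles and the motor myosin 1c (Myo1c).

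The cells were 3T3-L1 adipocytes, a mouse fibroblast-like line differentiated into fat cells in culture. All 12 samples received siRNA by electroporation, 0.75 nmol of it, 2 days after differentiation. Of these, 6 received a control siRNA, 3 received Zfp407 siRNA #1 and 3 received Zfp407 siRNA #2. Zfp407 encodes a zinc finger protein, and the series title ties it to insulin-stimulated glucose uptake and to GLUT4 mRNA. The labels name no insulin treatment of these samples. All samples came from 1 cell line, so the p-values measure the spread between samples of that line. In the knockdown arm that spread also holds any difference between the 2 siRNAs, which the tests treat as alike. The knockdown columns are numbered 1 to 6 and do not name their siRNA, so they form 1 arm of 6 here.

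Zfp407 itself was at 2.70 to 3.16 FPKM in the control and 1.60 to 2.13 FPKM in the knockdown libraries, which do not overlap (36.9% lower in mean). Knockdown libraries 1 to 6 held 2.13, 1.93, 1.79, 1.65, 1.60 and 1.62 FPKM. Each of libraries 1 to 3 was thus above each of libraries 4 to 6. Relative depth, read from the steps between low values, lay between 0.880 and 1.15 of control library 1. Mitochondrial transcripts took 19.4% to 26.3% of summed FPKM in 11 libraries and 32.8% in knockdown library 6. All 8 adipocyte markers were above 1 FPKM, with a summed level of 18234 to 22299 FPKM in the control and 16697 to 21503 FPKM in the knockdown libraries. Of the 8, 5 fell, Slc2a4 among them, beside 24.8% of all rows tested. The sum hides single markers: the mean of Lep went from 9.80 to 4.61 FPKM and that of Adipoq from 3026 to 2476 FPKM. Only Lpl had a higher mean in the knockdown arm (2836 and 3051 FPKM). The preadipocyte list summed to 1573 to 1928 FPKM in the control and 1518 to 1945 FPKM in the knockdown arm, with 1 of 6 markers lower. Of 6 macrophage markers 4 had a row, and none was found for Cd68 or Adgre1. Those 4 summed to at most 0.229 FPKM in every library, with Emr1 at 0 in all of them. The endothelial list summed to at most 0.430 FPKM. The muscle list summed to 11.3 to 18.5 FPKM, nearly all of it Des, with Myod1 at 0 throughout. The part of the adipocyte markers and of mitochondrial share in the results below was not tested, and fewer cells of a type and less RNA per cell cannot be told apart in these bulk samples.

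Of the 10 genes, 7 fell in the knockdown arm, none rose and 3 did not pass (limma, adjusted p over all rows tested). Of all rows tested, 24.8% were called lower and 11.6% higher, and among rows with a mean of at least 5 FPKM, which all 10 genes exceed, 27.9% were called lower. The median log2 fold change was −0.26 over the 10 genes and −0.05 over all rows tested. Falls made up 68.1% of all calls, 57.7% after each library was centred on its median and 60.0% after quantile normalization. The knockdown libraries all lay below all control libraries for 3 of the 10 genes, against 13.9% of rows tested. By exact permutation over libraries with unadjusted p under 0.05, 8 of the 10 were lower, Lrp1 included, against 29.6% of rows tested. Against a minimum fold of 1.2, Sort1 and Ralgapa2 passed, 2 of 10, where 3.69% of rows passed as lower. Because of how the set was chosen, these counts describe it and test nothing.

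**Figure D1:**
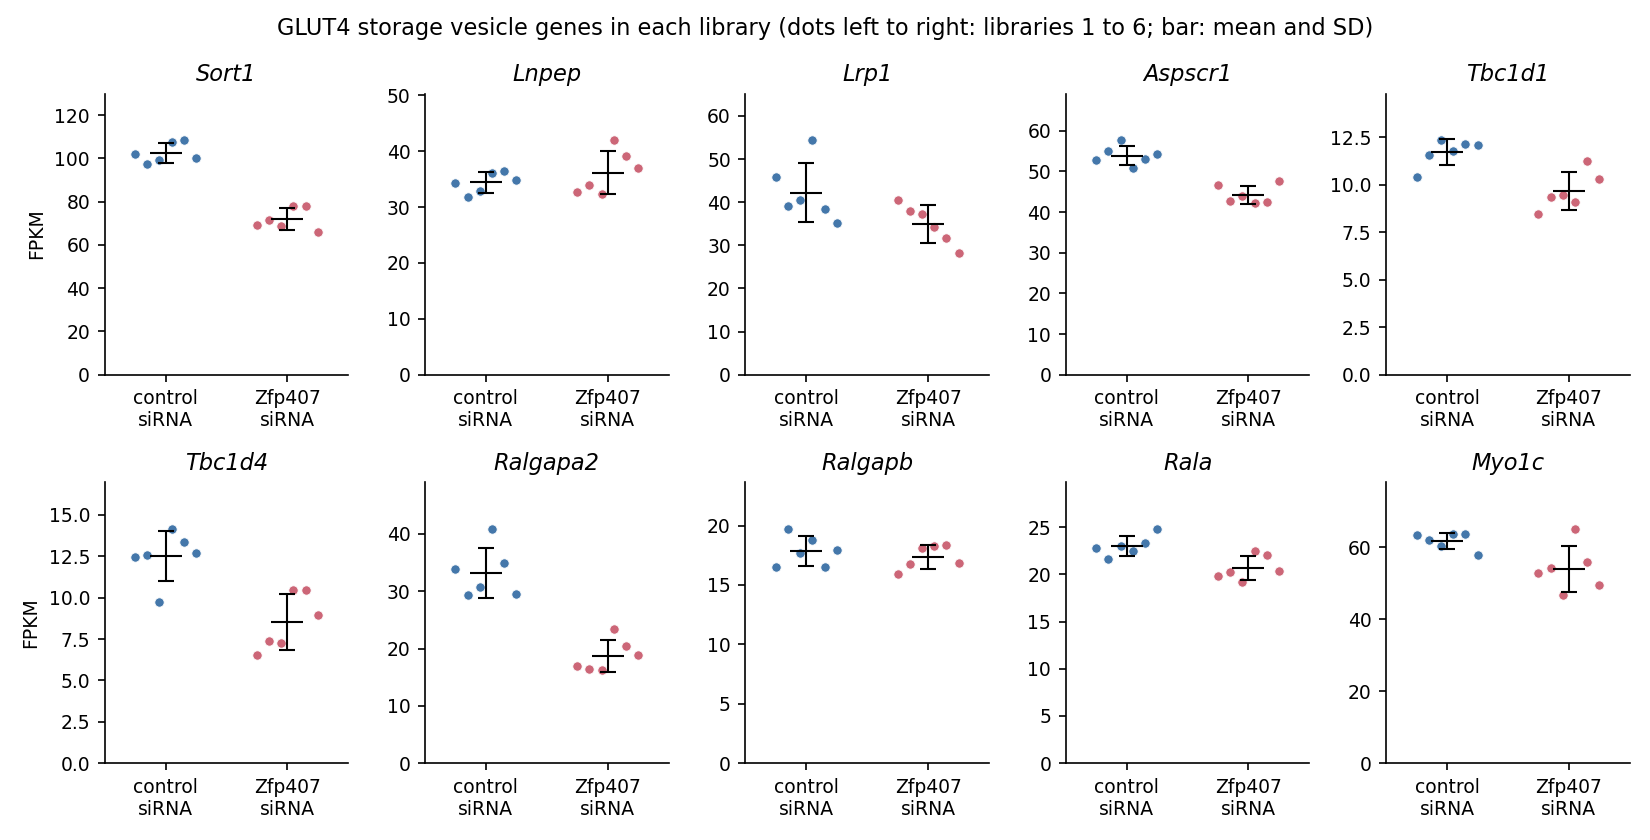
FPKM of the 10 genes in each library, with a separate axis from 0 for each gene; dots from left to right are libraries 1 to 6 of each arm, and the bars are the mean and SD. The arms are fully apart for Sort1 (97.6 to 108 against 66.1 to 77.9), Aspscr1 and Ralgapa2, and overlap for the other genes, Ralgapb among them.

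**Figure D2:**
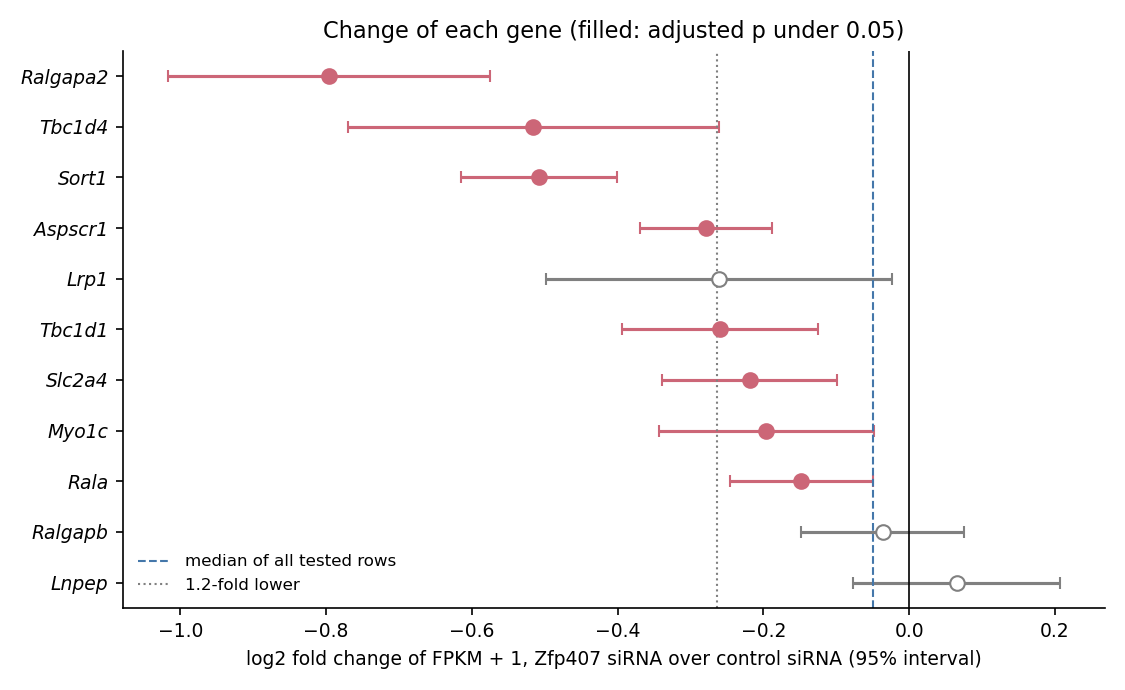
Log2 fold change of log2(FPKM + 1) for the 10 genes and Slc2a4, knockdown over control, with 95% intervals from limma; filled points passed the adjusted test. Values run from −0.80 for Ralgapa2 to 0.07 for Lnpep, the dashed line is the median of all rows tested (−0.05), and the dotted line marks a fold of 1.2.

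A caution on small changes applies to all of them. The worth of 1 read, measured in rows with a mean under 0.5 FPKM, was not the same in both arms (a log2 gap above 0.01) for 262 of 922 rows, and the 90th percentile of that gap was 0.222. Within the control arm, between odd and even libraries, 18 of 340 rows differed and that percentile was 0.0015. Among the rows that differed, the median gap was 0.239 within the control arm and 0.162 between the arms. A term belonging to a whole arm cannot be told apart from log2 changes of up to 0.222. Of the calls on the 10 genes and Slc2a4, those of Rala, Myo1c and Slc2a4 are that small. So are list calls given further on, among them Vamp2, Rab10, Exoc2, Exoc6b, Exoc8, Ywhag and Napb. Gaps above the 90th percentile exist too, so a larger change is not cleared of such a term.

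In control cells the 10 genes spanned from 103 ± 4.53 FPKM for Sort1 down to 11.7 ± 0.691 for Tbc1d1 (SD, n = 6 each). Sort1 was above 90.6% of all rows tested, level with Slc2a4, the gene of GLUT4 itself, at 103 ± 2.77 FPKM. Myo1c (61.7) and Aspscr1 (53.9) followed. Lrp1 (42.2) varied most, with a coefficient of variation of 16.3%, and its range overlapped those of Aspscr1, Lnpep (34.4) and Ralgapa2 (33.2), although within each control library it was above Lnpep and Ralgapa2. The ranges of Lnpep and Ralgapa2 overlapped each other, and both lay below every value of Aspscr1. Rala (23.0) and Ralgapb (17.9) were each apart from their neighbours. Tbc1d4 (12.5) and Tbc1d1 (11.7) overlapped at the lower end.

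The cargo and sorting genes did not move together. Sort1 (XLOC_021294, chromosome 3, 108283898 to 108383741, GRCm38) encodes the sorting receptor. Its level was 102, 97.6, 99.1, 108, 108 and 100.2 FPKM in control libraries 1 to 6. In knockdown libraries 1 to 6 it stood at 69.2, 71.5, 68.6, 77.9, 77.9 and 66.1 FPKM. Every knockdown library was below every control library. The mean was 29.9% lower (log2 fold change −0.51, SE 0.05, limma adjusted p = 1.1e-05), and the change passed against a minimum fold of 1.2 (adjusted p = 0.00486). The other 3 rows at its locus averaged at most 0.15 FPKM.

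Lnpep (XLOC_014310, chromosome 17, 17521408 to 17625454) encodes the aminopeptidase IRAP, the cargo that marks the same vesicles. Control libraries 1 to 6 gave 34.3, 31.8, 32.9, 36.2, 36.5 and 34.8 FPKM. The knockdown libraries gave 32.7, 33.9, 32.4, 41.9, 39.1 and 36.9 FPKM. Libraries 1 to 3 of the knockdown arm fell inside the control range and libraries 4 to 6 above it. The log2 fold change was 0.07 (95% interval −0.08 to 0.21; limma adjusted p = 0.465), and none of the alternatives tried gave a call.

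Lrp1 (XLOC_003368, chromosome 10, 127538094 to 127621148) encodes a large endocytic receptor that binds the other vesicle cargo. Its control libraries held 45.7, 39.0, 40.5, 54.3, 38.4 and 35.2 FPKM. Its knockdown libraries held 40.4, 37.9, 37.2, 34.3, 31.8 and 28.1 FPKM. All knockdown libraries were below the control mean, but only libraries 4 to 6 were below the lowest control library. The log2 fold change was −0.26 with a 95% interval of −0.50 to −0.02, which did not pass (limma adjusted p = 0.0807; unadjusted p = 0.0455 by exact permutation, two-sided). It passed without control library 6 (log2 fold change −0.31, adjusted p = 0.0474).

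A ratio of genes inside a library is free of any factor common to that library, and 8 such ratios were compared. Sort1 to Lnpep was between 2.88 and 3.07 in the control libraries and between 1.79 and 2.12 in the knockdown libraries, a log2 difference of −0.58. Sort1 to Slc2a4 went from 0.998 ± 0.0610 to 0.814 ± 0.0362 (SD, n = 6 each), a log2 difference of −0.29. Both ratios were lower in 6 of 6 knockdown libraries, so the Sort1 values fell more than those of Slc2a4. A term of an arm that differs between rows, as in the caution above, does not cancel in a ratio. Lnpep to Slc2a4 rose from 0.335 ± 0.0242 to 0.408 ± 0.0172, a log2 difference of 0.29, higher in 6 of 6 libraries. Each of these 3 had an exact permutation p of 0.00216, two-sided, the smallest that 924 divisions can give, and 0.00346 adjusted over the 8 ratios. Lrp1 to Slc2a4 was 0.410 ± 0.0639 and 0.399 ± 0.0739, and no difference was detected (exact permutation p = 0.723, log2 difference −0.05).

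**Figure D3:**
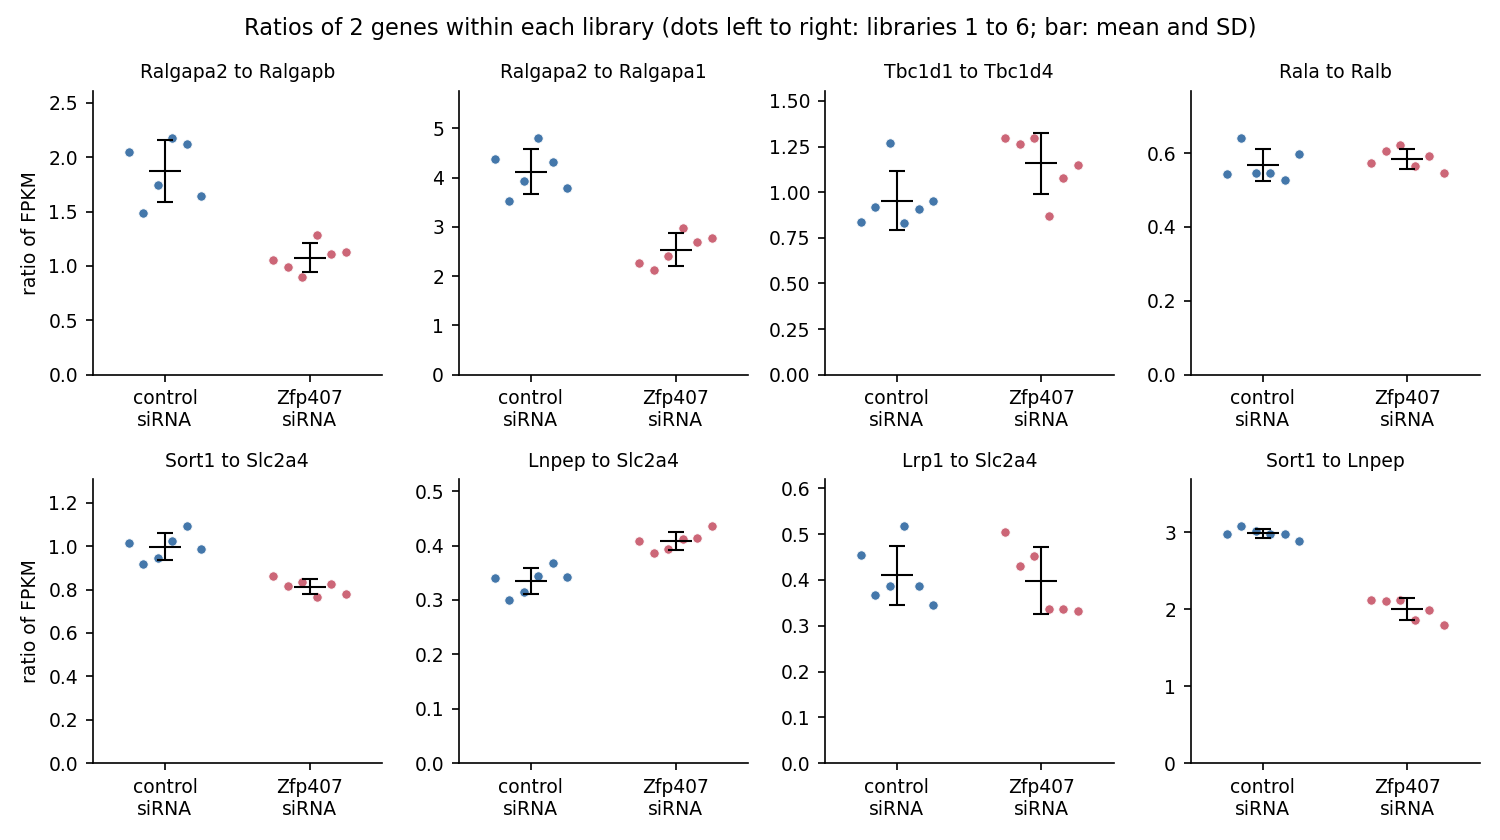
Ratio of the FPKM of 2 genes within each library, for 8 pairs, each axis from 0; dots from left to right are libraries 1 to 6 of each arm, and bars are the mean and SD. The arms do not overlap for Ralgapa2 to Ralgapb, Ralgapa2 to Ralgapa1, Sort1 to Slc2a4, Lnpep to Slc2a4 and Sort1 to Lnpep; the other 3 overlap.

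The tether gene fell. Aspscr1 (XLOC_004942, chromosome 11, 120672453 to 120709447) encodes TUG, whose cleavage lets vesicles go. Control libraries 1 to 6 read 52.8, 55.0, 57.7, 50.8, 53.0 and 54.2 FPKM. The gene was at 46.6, 42.7, 44.0, 42.3, 42.5 and 47.5 FPKM in knockdown libraries 1 to 6. The arms were apart, with a knockdown mean 17.9% lower (log2 fold change −0.28, SE 0.04, limma adjusted p = 2.85e-04). Against a minimum fold of 1.2 its adjusted p was 1. At the same locus the antisense gene Gm17178 went from 30.1 ± 2.22 to 25.5 ± 2.11 FPKM (SD, n = 6 per arm; log2 fold change −0.23, limma adjusted p = 0.0110). Strand keeping, not given in the sources used here, decides this locus, and without it reads of the 2 genes cannot be told apart.

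Both genes of the Rab switch fell. Tbc1d4 (XLOC_010952, chromosome 14, 101442360 to 101609203) encodes AS160, the Rab GTPase-activating protein that AKT phosphorylates. Its control values were 12.5, 12.6, 9.72, 14.2, 13.4 and 12.7 FPKM. Its knockdown values were 6.54, 7.41, 7.29, 10.4, 10.5 and 8.98 FPKM. Control library 3 was the one control within the knockdown range, and knockdown libraries 1 to 3 were lower than 4 to 6. The mean was 31.9% lower (log2 fold change −0.52, SE 0.12, limma adjusted p = 0.00454), with no pass against a minimum fold of 1.2 (adjusted p = 0.262).

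Tbc1d1 (XLOC_025600, chromosome 5, 64159451 to 64351486) encodes the paralog that is best known from muscle. Control libraries 1 to 6 showed 10.4, 11.6, 12.3, 11.8, 12.1 and 12.1 FPKM. Knockdown libraries 1 to 6 showed 8.48, 9.36, 9.44, 9.10, 11.3 and 10.3 FPKM. All but knockdown library 5 lay below the lowest control library. The mean was 17.7% lower (log2 fold change −0.26, SE 0.06, limma adjusted p = 0.00596; adjusted p = 1 against a minimum fold of 1.2). The ratio of Tbc1d1 to Tbc1d4 averaged 0.953 ± 0.162 without and 1.16 ± 0.167 with the knockdown (SD, n = 6 per arm), a log2 difference of 0.28 that did not pass (exact permutation p = 0.0628, two-sided; 0.0837 adjusted over the 8 ratios). Single libraries decided that call: without control library 3 the exact permutation p was 0.0152, and without knockdown library 4 it was 0.0173.

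The Ral switch held the largest fall of the 10 and one of the smallest changes, in subunits of the same complex. Ralgapa2 (XLOC_020120, chromosome 2, 146239879 to 146512076) encodes a catalytic subunit of the Ral GTPase-activating complex that AKT phosphorylates. Control libraries 1 to 6 held 33.9, 29.3, 30.8, 40.9, 34.9 and 29.5 FPKM. The gene was at 16.9, 16.5, 16.2, 23.4, 20.4 and 19.0 FPKM in knockdown libraries 1 to 6. Each of libraries 1 to 3 was thus below each of libraries 4 to 6, the reverse of the order of Zfp407. A link between the 2 orders was not tested. The highest knockdown library was below the lowest control library, and the mean was 43.6% lower (log2 fold change −0.80, SE 0.10, limma adjusted p = 9.2e-05; adjusted p = 0.00338 against a minimum fold of 1.2). The authors marked this row as a failed estimate, and 2 further rows carry the same name. The sum of the 3 rows went from 35.5 ± 4.47 to 21.3 ± 2.36 FPKM (SD, n = 6 each; log2 difference −0.71, exact permutation p = 0.00216), a sum taken after the values were seen.

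Ralgapb (XLOC_018591, chromosome 2, 158409848 to 158499275) encodes the shared subunit that both catalytic subunits need. Its control libraries were at 16.5, 19.7, 17.7, 18.8, 16.5 and 18 FPKM and its knockdown libraries at 16.0, 16.7, 18.1, 18.3, 18.4 and 16.8 FPKM. The ranges overlapped, with control libraries 2 and 4 above every knockdown library and knockdown library 1 below every control library. No change was called (log2 fold change −0.04, 95% interval −0.15 to 0.08, limma adjusted p = 0.612). Ralgapa1, the other catalytic subunit gene, was at 8.04 ± 0.309 and 7.37 ± 0.491 FPKM (SD, n = 6 per arm; log2 fold change −0.11, limma adjusted p = 0.0635), and it passed without knockdown library 4 (adjusted p = 0.0418). It has 2 rows, whose sum was 13.2 ± 1.60 and 12.2 ± 1.85 FPKM (exact permutation p = 0.342).

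The balance of the mRNAs of the complex's subunits differed between the arms, and the proteins were not measured. Ralgapa2 to Ralgapb was between 1.49 and 2.18 in the control libraries and between 0.895 and 1.28 in the knockdown libraries. The log2 difference was −0.79, lower in 6 of 6 libraries. Ralgapa2 to Ralgapa1 fell from 4.12 ± 0.464 to 2.54 ± 0.331 (SD, n = 6 each), a log2 difference of −0.70, also in 6 of 6. The exact permutation p was 0.00216 for each, two-sided, and 0.00346 adjusted over the 8 ratios. With all rows of each name summed, taken after the values were seen, Ralgapa2 to Ralgapa1 was at a lower level, 2.71 ± 0.364 in control and 1.76 ± 0.227 in knockdown (log2 difference −0.62, unadjusted exact permutation p = 0.00216), and the arms again did not overlap.

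Rala (XLOC_008672, chromosome 13, 17880575 to 17944239) encodes the GTPase that this complex switches off. It measured 22.8, 21.6, 23.0, 22.5, 23.3 and 24.8 FPKM in the control and 19.9, 20.2, 19.2, 22.4, 22.0 and 20.3 FPKM in the knockdown libraries. Libraries 4 and 5 of the knockdown arm reached into the control range. As for Ralgapa2, libraries 1 to 3 of that arm were each below libraries 4 to 6. The fall was the smallest that passed (10.1% lower, log2 fold change −0.15, SE 0.05, limma adjusted p = 0.0221; adjusted p = 1 against a minimum fold of 1.2). Ralb, the paralog, had a log2 fold change of −0.20 (limma adjusted p = 0.0521; 0.00718 without control library 2, which stood at 33.6 FPKM while the others were at 41.2 to 44.3). It also passed without knockdown library 4 (adjusted p = 0.0279) and among rows with a mean of at least 5 FPKM (adjusted p = 0.0469). The ratio of Rala to Ralb was 0.567 ± 0.0437 and 0.585 ± 0.0279 (SD, n = 6 each; exact permutation p = 0.394).

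The motor gene fell, a call that most alternatives ended. Myo1c (XLOC_004299, chromosome 11, 75650504 to 75674640) encodes a myosin that carries vesicles on actin below the plasma membrane. Control libraries 1 to 6 had 63.3, 61.9, 60.4, 63.5, 63.5 and 57.7 FPKM. Knockdown libraries 1 to 6 had 52.9, 54.2, 46.6, 65.0, 55.9 and 49.4 FPKM. Knockdown library 4 was above every control library and the other 5 were below every one. The mean was 12.5% lower (log2 fold change −0.20, SE 0.07, limma adjusted p = 0.0387). The call was lost with no filter for low rows (adjusted p = 0.0603), against a minimum fold of 1.2 (adjusted p = 1), after centring (adjusted p = 0.0642), after quantile normalization (adjusted p = 0.101) and without any one of 9 libraries: control 1 to 5 and knockdown 1, 2, 3 and 6 (adjusted p from 0.0558 to 0.0792). The authors marked this row, too, as a failed estimate.

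The authors' deposited table marks none of the 10 genes as significant. Its log2 fold change was −0.51 for Sort1 (q-value 0.302) and −0.56 for Tbc1d4 (q-value 0.301), and it gave a q-value of 0.99999 for the other 6 that it tested. The authors' comparison did not mark Zfp407 itself either (q-value 0.0734), nor Slc2a4 (q-value 0.99999). The share of all rows that it marks is not given here, so the count says nothing particular to the vesicle genes.

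Sequences around the start site are shown for the largest falls and, beside them, for the gene with the highest log2 fold change. RefSeq windows on GRCm38.p6, from 250 bases before to 50 after a start, were matched by symbol for 9 of the 10 genes in 15 windows. Sort1, whose log2 fold change of −0.51 was close to that of Tbc1d4 (−0.52), had no window. Ralgapa2 (chr2:146511955-146512254, minus strand) and Tbc1d4 (chr14:101609142-101609441, minus strand) are the largest falls, and Lnpep (chr17:17624440-17624739, minus strand) is set beside them. The RefSeq start lies 72, 12 and 965 bases inside the upper edge of the row's locus for Ralgapa2, Tbc1d4 and Lnpep. Capitals mark, on either strand and with overlaps allowed, GGGCGG (the GC box), CCAAT (the CCAAT box), TATAAA (the TATA box), CACGTG (an E-box), AGGTCA (a nuclear receptor half-site) and CCGGAA (an ETS core), which is every motif that was searched.
Ralgapa2: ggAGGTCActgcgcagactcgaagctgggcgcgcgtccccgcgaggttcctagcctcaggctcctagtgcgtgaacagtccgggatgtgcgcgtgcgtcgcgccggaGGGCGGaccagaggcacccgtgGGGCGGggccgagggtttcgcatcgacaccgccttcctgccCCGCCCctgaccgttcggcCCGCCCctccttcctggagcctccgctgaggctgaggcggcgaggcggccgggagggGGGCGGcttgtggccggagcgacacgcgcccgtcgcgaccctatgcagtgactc
Tbc1d4: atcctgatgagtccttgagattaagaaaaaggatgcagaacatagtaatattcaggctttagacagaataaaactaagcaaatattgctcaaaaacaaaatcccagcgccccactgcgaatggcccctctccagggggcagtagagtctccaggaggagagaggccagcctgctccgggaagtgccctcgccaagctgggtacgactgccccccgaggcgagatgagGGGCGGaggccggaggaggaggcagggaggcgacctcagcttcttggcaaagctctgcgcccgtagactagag
Lnpep: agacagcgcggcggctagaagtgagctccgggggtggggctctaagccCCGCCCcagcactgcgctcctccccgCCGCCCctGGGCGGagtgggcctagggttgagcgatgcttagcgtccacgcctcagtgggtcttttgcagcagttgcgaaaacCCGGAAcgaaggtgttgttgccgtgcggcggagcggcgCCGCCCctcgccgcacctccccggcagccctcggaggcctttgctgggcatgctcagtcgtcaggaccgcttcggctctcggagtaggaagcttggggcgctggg

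The Ralgapa2 window held 5 GC boxes and 1 nuclear receptor half-site, the Tbc1d4 window 1 GC box, and the Lnpep window 4 GC boxes and 1 ETS core. A GC box was present in 13 of the 15 windows of the vesicle genes and in 35.7% of all 32851 windows, and an ETS core in 7 of the 15 and in 14.9% of all. The nuclear receptor half-site stood in 2 of the 15 and in 16.3% of all, the E-box in 1 and 7.15%, the CCAAT box in 1 and 37.4%, and the TATA box in 0 and 13.6%. Windows of 1 gene share sequence and are not independent. Content of G and C ran from 52.0% to 76.7% in the 15 windows, and its median over all windows was 52.7%. These are matches of letters only.

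Genes of the neighbouring steps were taken from lists. In 9 lists fixed from the pathway, 120 genes were tested and 32 fell, 26.7% of them beside the 24.8% of all rows, while 4 rose, a number that was 8 after centring, 10 after quantile normalization and 2 without control library 1 or 2 or knockdown library 1. The median log2 fold change was −0.08. None of the 120 passed against a minimum fold of 1.2.

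Among other cargo and sorting genes, 5 of 16 fell and none rose, with 4 falls after centring. Vti1a, a SNARE of the endosome and Golgi, went from 22.2 ± 2.79 to 15.1 ± 1.52 FPKM (SD, n = 6 per arm; log2 fold change −0.52, limma adjusted p = 6.3e-04), and Tfrc, the transferrin receptor of general endosomes, from 59.9 ± 5.16 to 44.9 ± 3.85 FPKM (log2 fold change −0.41). Slc2a4 fell from 103 ± 2.77 to 88.5 ± 8.19 FPKM (log2 fold change −0.22, limma adjusted p = 0.00853), with knockdown library 4, at 101.9 FPKM, inside the control range. Vamp2, the vesicle SNARE, had a log2 fold change of −0.14 (limma adjusted p = 0.0229) and was picked out after its value was seen.

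Of 10 tested genes around the TUG tether only Rhoq fell, and 1 gene rose after centring, after quantile normalization or without knockdown library 6. Without knockdown library 5 the falls were 2. Rhoq, which encodes the small GTPase TC10, went from 66.3 ± 3.83 to 48.9 ± 5.43 FPKM (SD, n = 6 per arm; log2 fold change −0.44, limma adjusted p = 3.8e-04), with no overlap of the arms. Ate1, an arginine transferase, had a log2 fold change of −0.16 (limma adjusted p = 0.0985; 0.0252 without knockdown library 5), at a locus of 39 rows.

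Rab GTPases of GLUT4 traffic and their activators held 4 falls and no rise among 14 tested, with 3 falls and 1 rise after quantile normalization. Rab13 fell from 22.4 ± 1.10 to 17.1 ± 0.779 FPKM (SD, n = 6 per arm; log2 fold change −0.37, limma adjusted p = 3.3e-05), and Dennd4b, of a family of Rab activators, had a log2 fold change of −0.27. Rab10, the main Rab of GLUT4 release in adipocytes, fell from 50.6 ± 1.03 to 44.9 ± 3.51 FPKM (log2 fold change −0.17, limma adjusted p = 0.0141) with no overlap of the arms, and was picked out after its value was seen.

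The Ral and exocyst list had the most falls, 7 of 16 tested with a median log2 fold change of −0.20 and none higher, 6 falls after centring and 5 after quantile normalization. Without knockdown library 4 the list had 11 falls. Exoc4, an exocyst subunit, fell from 21.5 ± 1.15 to 17.6 ± 2.32 FPKM (SD, n = 6 per arm; log2 fold change −0.29, limma adjusted p = 0.0105), and Rgl1, a Ral activator, had a log2 fold change of −0.28. Counted after the values were seen, 5 of 9 exocyst genes fell (4 after centring and 3 after quantile normalization): Exoc2, Exoc4, Exoc6b, Exoc7 and Exoc8. Of all rows tested 24.8% were called lower, and of those with a mean of at least 5 FPKM 27.9%. Both counts describe genes chosen with results known and test nothing. Exoc6 had a log2 fold change of −0.20 and did not pass, and those of Exoc1, Exoc3 and Exoc5 ran from −0.02 to 0.04.

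Of 15 genes of motors and actin 5 fell and none rose, with 4 falls after quantile normalization and 3 without control library 5 or knockdown library 2 or 6. In docking and fusion 3 of 9 fell and 1 rose, but none fell after centring, and 1 fell after quantile normalization or without any one of 7 libraries (control 1, 2, 5 and 6, knockdown 1, 2 and 6). Napb, an adaptor of SNARE disassembly, rose with a log2 fold change of 0.20 (limma adjusted p = 0.0302) and Pld1, a phospholipase, fell with −0.26 (limma adjusted p = 0.0481). Without single libraries both calls were lost, with adjusted p up to 0.0671 for Napb (7 libraries: control 1, 2, 4 and 5, knockdown 1, 3 and 6) and 0.0979 for Pld1 (8 libraries: control 1, 2, 5 and 6, knockdown 1, 2, 4 and 6). Napb was also lost with no filter (adjusted p = 0.0588) and Pld1 after centring (adjusted p = 0.0784).

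Kinases and 14-3-3 proteins that act on Tbc1d1 and Tbc1d4 moved in both directions: 3 of 14 fell and 2 rose, with 1 fall and 5 rises after quantile normalization. The rises were 4 after centring or without control library 5, and 1 without any one of 7 libraries (control 1 and 2, knockdown 1, 2, 4, 5 and 6). Ywhab, a 14-3-3 protein, rose from 360 ± 18.8 to 431 ± 26.9 FPKM (SD, n = 6 per arm; log2 fold change 0.26, limma adjusted p = 0.00183), and Ywhag, another, fell (log2 fold change −0.22, limma adjusted p = 0.0152). Among 17 other TBC domain genes 3 fell and 1 rose, and 5 fell and 2 rose after quantile normalization. Without knockdown library 4 the falls were 5, and without knockdown library 6 the rises were 2. Tbc1d17 rose from 27.9 ± 3.32 to 36.3 ± 3.44 FPKM (log2 fold change 0.37, limma adjusted p = 0.00421), and Tbc1d2b fell (log2 fold change −0.36, limma adjusted p = 0.0236), a call lost without control library 3 or 6 or knockdown library 6 (adjusted p from 0.0509 to 0.0512). Among 9 relatives of Lrp1 and Sort1 only Lrpap1 passed, the chaperone of the LDL receptor family, with 217 ± 10.3 against 169 ± 18.9 FPKM in the knockdown arm (log2 fold change −0.37, limma adjusted p = 0.00130). Without knockdown library 2, 4 or 5 there were 2 falls. Lrp5 had a log2 fold change of −0.41 (limma adjusted p = 0.0545; 0.00657 without knockdown library 2).

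**Figure D4:**
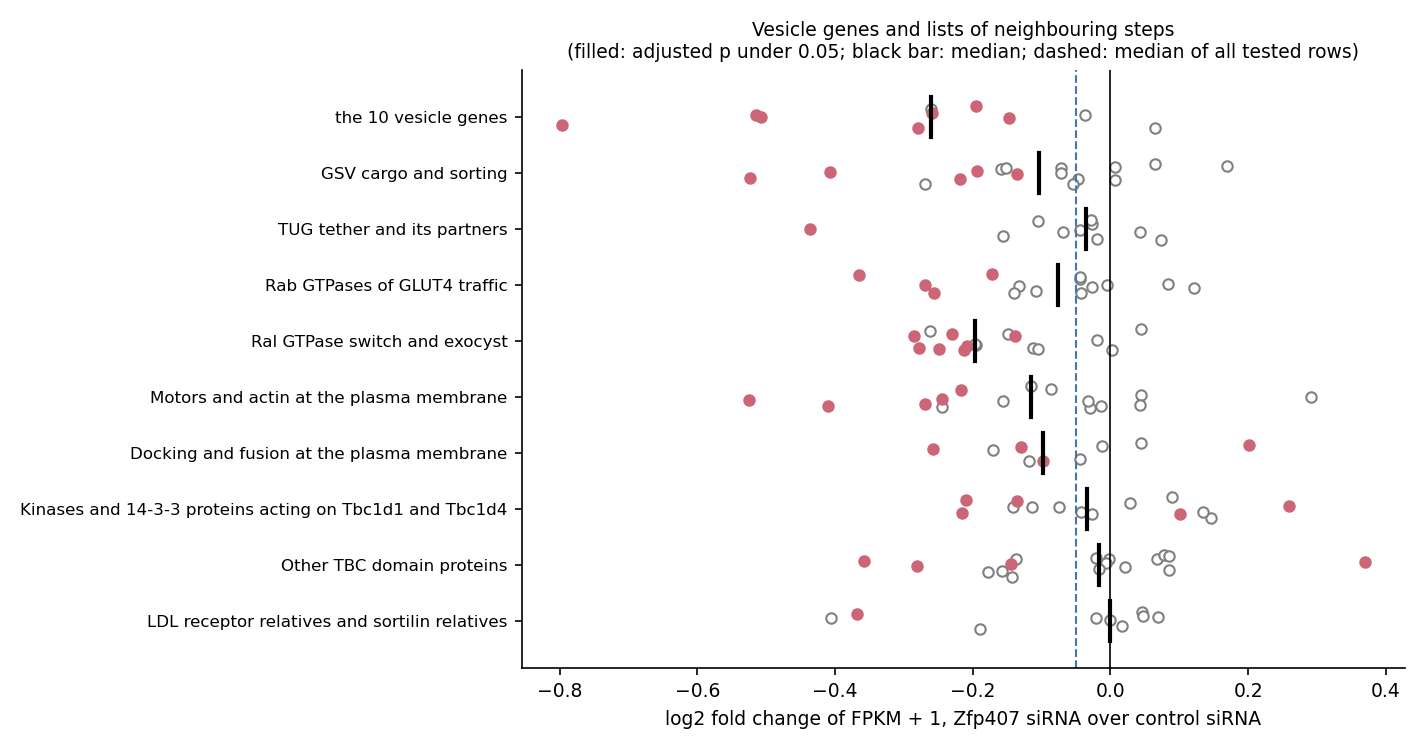
Log2 fold change of log2(FPKM + 1), knockdown over control, for the 10 vesicle genes and for 9 lists of neighbouring steps; each dot is a gene tested, filled where the adjusted p passed, black bars are medians and the dashed line is the median of all rows tested (−0.05). The median is −0.26 for the vesicle genes and −0.20 for the Ral and exocyst list.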

How the data were processed

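RNA sequencing values of 12 libraries were taken from 1 deposited table. The authors gave each gene an FPKM per library and per arm, and a log2 fold change with a p-value and q-value for the knockdown arm against the control arm, per the file headers. Per the submitters' processing notes, Cufflinks 2.0.2, SAMtools 0.1.18.0, TopHat2 2.0.5 and Bowtie2 2.0.0.7 were used. The genome build, not given in the sources used here, was checked: of 18457 rows with a protein-coding name, 99.6% overlapped that gene in GENCODE M21 (GRCm38), all 10 vesicle genes among them, and positions are given on that build, counted from 1. FPKM holds no read totals, so absolute depth is unknown.

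The arms were compared on log2(FPKM + 1) by limma 3.58.1 under R 4.3.3 (trend, two-sided, Benjamini-Hochberg, threshold 0.05) over all 14706 rows with a mean of at least 1 FPKM. Fold changes are on that scale, which understates low genes. The model was checked on simulated data. Ratios and single genes were tested by exact permutation over libraries in Python 3.11.15. Intervals are 95% and unadjusted. The vesicle genes and lists were chosen with earlier results of these data known. Genes named from a list are those past both the test and a minimum fold of 1.2 or, with fewer than 2 such genes, its 2 largest changes. Of 143 list genes, 133 had a row of their own. The alternatives were another pseudocount, filter, scaling, trend, minimum fold and row set, a block and each library left out. Some genes that the rule names are not reported here.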

Additional observations from a re-analysis of the deposited data

Results flagged for a closer look

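In 80 sets of 6 libraries, 2 held a library far from the other 5, by its gap as a share of the range, where about 1 in 20 sets would by chance. The 2 found are not more than that share. Ralb was at 33.6 FPKM in control library 2 and at 41.2 to 44.3 FPKM in the other control libraries, a gap of 0.709 of the range. The ratio of Tbc1d1 to Tbc1d4 was 1.27 in control library 3 and 0.834 to 0.954 in the others, a gap of 0.724.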

How the results depend on the processing

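Sort1 and Ralgapa2 kept their calls in all alternatives run on them, and Tbc1d4, Tbc1d1, Aspscr1 and Rala lost theirs only against a minimum fold of 1.2. That fold left 856 rows called, 543 lower and 313 higher, 2 of the vesicle genes lower, and 0 list genes lower and 0 higher. List genes called higher numbered 8 after centring and 10 after quantile normalization, and from 2 to 5 with 1 library left out. With 1 library left out, 6 to 8 vesicle genes were lower. Among rows with 1 gene name and not marked failed or low, 5 vesicle genes were lower. That row set leaves out Ralgapa2 and Myo1c. Unadjusted exact permutation was added after the data were seen, in place of the planned adjustment over the vesicle genes, which was not run. With the column number as a replicate block, 5700 rows were called and 8 vesicle genes were lower. The block added Lrp1 (limma adjusted p = 0.0350), Ralgapa1 (0.0362), Ralb (0.0357), Ate1 (0.0239) and Lrp5 (0.0177), ended the call of Pld1 (0.110) and took docking and fusion from 3 falls to 1. Deviations of same-numbered libraries correlated at −0.049 to 0.145, with 1 of 6 pairs over 0.1, so the numbers were not taken as pairs.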
